A study of Mus musculus with 17 samples.

Results

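The measurement described here is the induction of a dominant-negative form of Chd4 in mouse 3134 cells, compared with uninduced cells of the same line. It rests on 4 of the 17 arrays of the series, 2 with the drug present (repressed) and 2 with it withdrawn (induced), taken by their titles. RNA was read on Affymetrix Mouse Gene 1.0 ST arrays, and 19938 genes with a singly named probe set were tested. The 3134 line is labelled as mouse mammary epithelial. Each line carried a tetracycline-regulated transactivator, and stocks were held in tetracycline at 5 µg/ml, which keeps the transactivator and the dominant-negative protein off. The dnChd4 line also carried a stably integrated, Flag-tagged dominant-negative Chd4. Cells were plated in medium with charcoal-dextran-treated serum, with or without tetracycline, and harvested at 48 h. Repressed cells therefore had the drug, and induced cells had no drug, the transactivator and dnChd4. Drug withdrawal, the transactivator and dnChd4 cannot be told apart inside this line. The labels do not say whether the line is 1 clone, which part of Chd4 the construct holds, or whether the replicates came from separate cultures. The p-values thus reflect the variation among these few arrays, and that variation could be technical. The other lines used for comparison carried the transactivator with dominant-negative Brg1 (4 arrays) or Snf2h (4 arrays), or the transactivator alone (5 control arrays, 2 repressed and 3 induced).

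Chd4 is an ATP-dependent motor that moves nucleosomes. It is the usual motor of NuRD, a complex that joins remodelling to histone deacetylation through Hdac1 and Hdac2, with Mta, Mbd, Gatad2 and Rbbp proteins as further subunits. NuRD is best known for holding genes down, including genes of other lineages, and it is also found at active promoters and enhancers. A dominant-negative motor in general takes the place of the normal protein without supplying its activity.

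Values are deposited log2 signals, so a difference of 1 is a doubling. The array medians of the 4 arrays lay between 5.52 and 5.58. The 2 repressed arrays correlated at 0.9977 over the 19938 genes tested and the 2 induced arrays at 0.9979, against 0.9863 to 0.99 between repressed and induced. The control arrays did not follow their labels. Control repressed replicate 1 correlated at 0.9953 with control induced replicate 2 and at 0.9747 with the other repressed array, while control induced replicate 1 correlated at 0.9945 with control repressed replicate 2. Results against the control line are therefore given with all 17 arrays and again on 15 arrays, without those replicate 1 arrays. Of 9 measured epithelial markers, 2 were dim, meaning under 4.77 (the 30th percentile of gene means). Epcam, one of those, lay between 4.0 and 4.08, while Cdh1 lay between 5.08 and 5.17 and Krt8, the highest, between 6.20 and 6.40. None of the 9 passed the test on induction. The 10 fibroblast and mesenchymal markers ranged widely, from Lum, between 3.04 and 3.14, to Vim, between 12.63 and 12.93. Of these, 2 were dim, and Col1a1 alone passed (0.68).

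Chd4 itself checked the labels. Its signal was 10.56 and 10.35 in the repressed arrays and 12.27 in both induced arrays, a rise of 1.82 (SE 0.0886; limma adjusted p = 0.00119). In the 13 arrays of the other lines Chd4 stayed between 9.81 and 10.36, below every dnChd4 array but the lower repressed one. The probe set may read the transgene, the endogenous gene or both, and these cannot be told apart here.

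Across all genes, 4168 passed the threshold of 0.05 on the adjusted p (20.9% of those tested): 2521 were higher after induction (12.6%) and 1647 were lower (8.26%). The changes were mostly modest. At least 1.5-fold changes were reached by 867 of the higher and 482 of the lower genes, at least 2-fold changes by 195 and 48, and at least 4-fold changes by 14 and 1. The large changes were thus mostly rises, while the median change over all genes was -0.03. Few calls came from genes that had been dim: of 5740 genes dim before induction, 68 rose (1.18%) and 50 fell (0.871%), against 2453 (17.3%) and 1597 (11.2%) of the 14198 others. Induced and repressed arrays did not overlap for 11988 genes (60.1%), so a lack of overlap alone says little with 2 arrays a group. The number of calls depends on how the spread is estimated. With any 1 of the 4 arrays left out the 3-array fit made 0 calls at the adjusted threshold (4523 to 5523 at an unadjusted p under 0.05), and the same omissions in a fit over the 12 arrays of the dominant-negative lines gave 1926 to 2624 calls. A fit over all 17 arrays, which takes in the spread of the control arrays, made 19 calls.

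**Figure D1:**
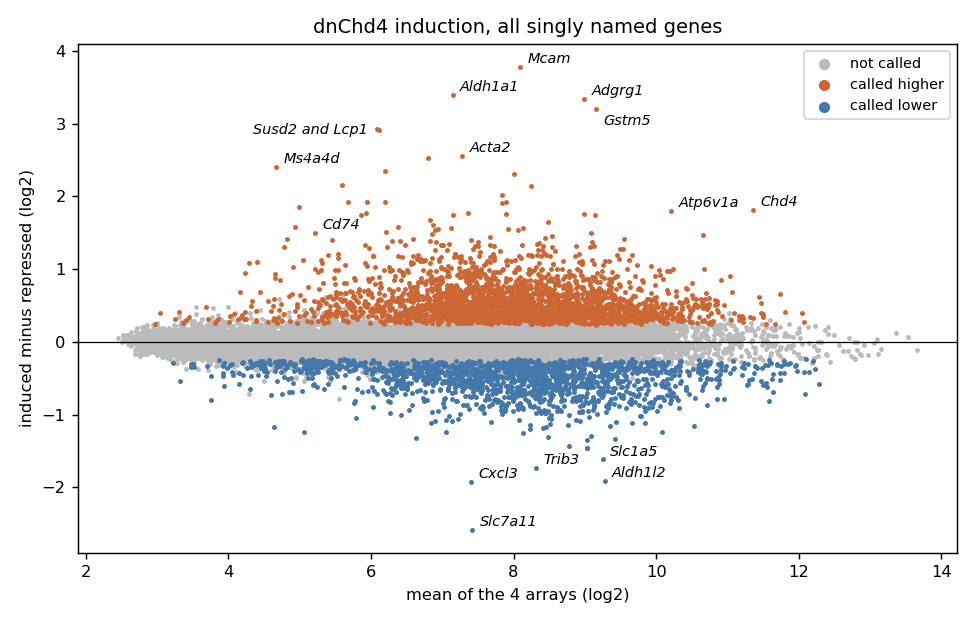
Change on induction (induced minus repressed, log2) against the mean of the 4 dnChd4-line arrays (log2), 1 point per gene, coloured by the limma call. Rises reach 3.78 (Mcam), falls reach -2.58 (Slc7a11), and genes with low means are rarely called.

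Among the 15 measured NuRD subunits, Chd4 was joined by 5 others that rose and 1 that fell, and 8 did not pass. With Chd4 counted, 40% were higher and 6.67% lower, against 12.6% and 8.26% of all genes. The deacetylase Hdac1 rose from 10.50 and 10.47 to 10.98 and 11.02 (0.52, SE 0.0646; limma adjusted p = 0.00457). Chd3, the motor that can replace Chd4 in the complex, rose by 0.56 (limma adjusted p = 0.00722), Mta3 by 0.42, Gatad2b by 0.40 and Gatad2a by 0.28. A dimmer probe set of Mta3 did not share the rise (-0.14). Mta1 fell by 0.33. These calls depend on the settings. With Chd4 counted, 4 rises and 1 fall passed in the 12-array fit, 4 rises and 0 falls with all probe sets, 1 rise and 0 falls on 17 arrays, and none in the 3-array fits. Hdac2, Mta2, Mbd2, Mbd3, Rbbp4, Rbbp7, Cdk2ap1 and Chd5 changed by -0.23 to -0.02 without passing. The subunit levels therefore moved far less than Chd4, and not in 1 direction. Apart from Chd4, no subunit differed in its response from the dnBrg1 or dnSnf2h line. In the control line on 15 arrays, Hdac1 changed by 0.74, Chd3 by 0.43, Gatad2b by 0.38, Mta3 by 0.26, Gatad2a by 0.20 and Mta1 by -0.34. Of the partners of Chd4 outside NuRD, the heterochromatin proteins Cbx3 (-0.57) and Cbx5 (-0.43) fell and 4 of 6 did not pass. The motors targeted in the sister lines did not pass the test: Smarca4, which encodes Brg1, was 9.31 and 9.22 before and 9.29 and 9.22 after, and Smarca5, which encodes Snf2h, changed by -0.19 (limma adjusted p = 0.154). Among 22 Polycomb and DNA methylation genes, 6 fell and 2 rose (27.3% and 9.09%, against 8.26% and 12.6% of all genes). Those that fell included Uhrf1 (-0.86) and Dnmt1 (-0.51), which copy DNA methylation at replication, and Hells (-0.79), while the de novo methyltransferase Dnmt3a rose by 0.50.

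The largest rise was in Mcam, a cell adhesion molecule of endothelial and smooth muscle cells. It went from 6.12 and 6.29 to 10.00 and 9.96, a 13.7-fold rise (3.78, SE 0.0803; limma adjusted p = 0.000133). Aldh1a1, which makes retinoic acid from retinaldehyde, went from 5.70 and 5.20 to 8.74 and 8.95 (10.5-fold). The adhesion receptor Adgrg1 went from 7.39 and 7.25 to 10.66 and 10.67, and the glutathione transferase Gstm5 from 7.63 and 7.48 to 10.79 and 10.72. In all 4 genes both induced arrays lay far above both repressed arrays. Susd2, a membrane protein, and Lcp1, the leukocyte form of plastin, started dim: Susd2 rose from 4.53 and 4.72 to 7.37 and 7.72, and Lcp1 from 4.73 and 4.58 to 7.60 and 7.54. Acta2 and Tagln, smooth muscle cytoskeletal genes, rose with more spread between the induced arrays, 8.11 and 9.0 for Acta2 and 7.71 and 8.43 for Tagln, from starting values of 5.94 and 6.06 and of 5.62 and 5.46. Ms4a4d (2.41), Tcp11l2 (2.35), Nppb (2.31) and Pld4 (2.16) completed the 12 largest rises. Muc13 (1.86) and Tcp11x2 (1.58) were the next genes by rise among those dim before induction. Of the genes above the 90th percentile of mean level, Gstm5, Chd4, Atp6v1a (1.80) and Gprc5a (1.74) rose most.

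The falls were smaller, and many of the leading genes serve amino acid supply. Slc7a11, the cystine transporter of the plasma membrane, dropped from 8.41 and 9.02 to 6.08 and 6.19 (-2.58, SE 0.19; limma adjusted p = 0.00161). The chemokine Cxcl3 dropped from 8.32 and 8.42 to 6.28 and 6.60, and Aldh1l2, a mitochondrial folate enzyme, from 10.15 and 10.33 to 8.42 and 8.23. Trib3, a pseudokinase induced by stress, dropped from 8.85 and 9.50 to 7.47 and 7.42. Its repressed arrays differed by more than its induced ones, and the groups still did not overlap. Next came the transporters Slc1a5 (-1.61), Slc6a9 (-1.46) and Slc6a15 (-1.32), the small nucleolar RNA host Snhg5 (-1.42), Cdca7 (-1.35), the gap junction gene Gja1 (-1.34), Pck2 (-1.31) and Mthfd2 (-1.30).

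**Figure D2:**
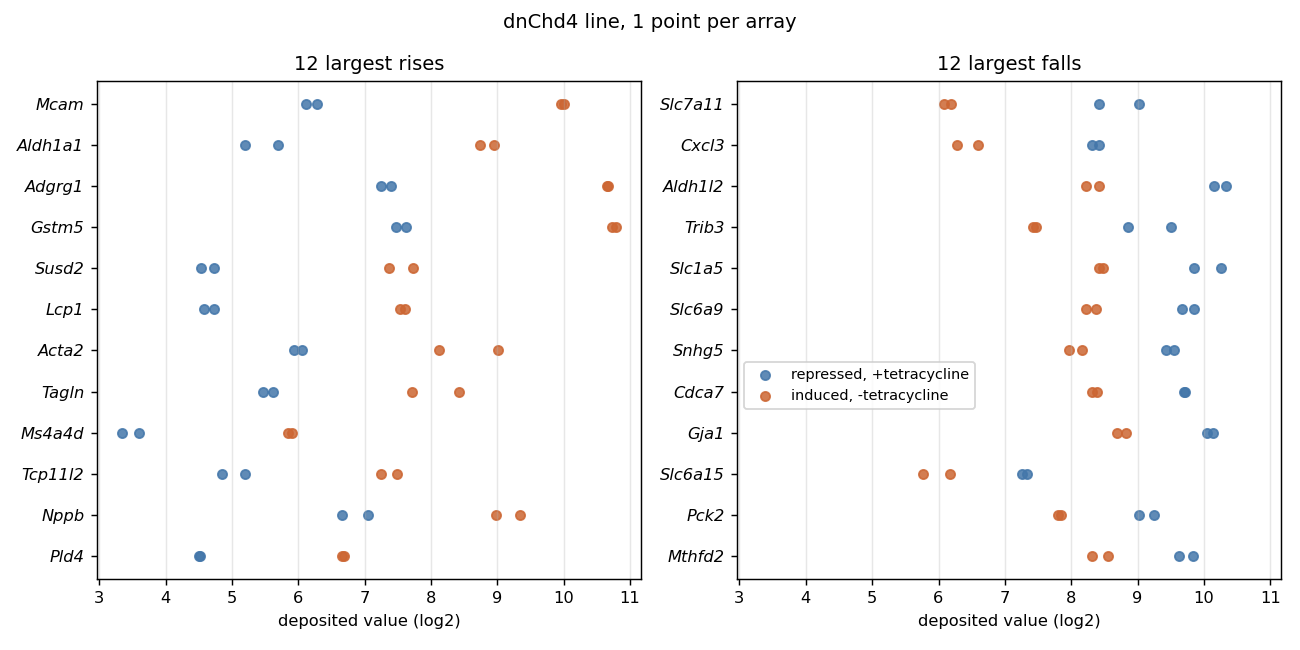
Deposited log2 value of the 12 largest rises (left) and 12 largest falls (right) in each of the 4 dnChd4-line arrays, 1 point per array. Repressed and induced points are separate for every gene shown, because the genes were chosen that way, and the gap is wider for the rises.

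ATF4 is a transcription factor that raises amino acid synthesis, import and tRNA charging when amino acids run short or translation initiation is curbed. Many of its targets carry a composite site for ATF4 and a C/EBP partner, searched here as TGATGNAA on both strands in the 250 bases before the start. The sites are shown for the gene with the largest fall, which has a pair of them, and for asparagine synthetase, the classical target, as the 120 bases before each start (RefSeq promoters, GRCm38.p6, minus strand, chr3:50443614-50443733 for Slc7a11 and chr6:7693210-7693329 for Asns), with the composite in capitals. The second Slc7a11 match lies on the opposite strand.
Slc7a11: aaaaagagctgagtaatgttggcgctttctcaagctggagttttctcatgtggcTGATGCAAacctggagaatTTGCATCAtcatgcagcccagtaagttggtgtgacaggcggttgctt
Asns: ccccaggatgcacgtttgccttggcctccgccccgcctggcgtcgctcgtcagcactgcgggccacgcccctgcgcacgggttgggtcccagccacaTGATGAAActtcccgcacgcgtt
The Slc7a11 matches lie 66 to 59 and 47 to 40 bases before the start, and the Asns match 23 to 16 bases before it. The composite was present in 4 of 18 ATF4-list genes with a promoter window (22.2%), in 2 of 11 aminoacyl-tRNA synthetase genes (18.2%) and in 0 of 13 serine and one-carbon genes, against 432 of 15614 tested genes (2.77%). A match is a string of letters and not a shown binding site.

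Of 20 ATF4 stress genes, 12 fell and 1 rose, with a list median of -0.59. Atf4 itself fell by 0.79, Atf5 by 0.79 and Cebpg, a dimer partner, by 0.71. Asns was 12.38 and 12.50 in repressed and 11.66 and 11.79 in induced arrays (-0.72; limma adjusted p = 0.00357). The member that rose was Ppp1r15a, which restores translation initiation (0.43). Of 14 serine and one-carbon genes, 11 fell and none rose, with a median of -0.86. They ran the length of the pathway, from Phgdh (-0.45), Psat1 (-1.16) and Psph (-0.86) in serine synthesis to Shmt2 (-1.02), Mthfd2, Mthfd1l (-1.0) and Aldh1l2 in the mitochondrial folate branch. Aldh18a1, which commits glutamate to proline synthesis, fell from 10.65 and 10.74 to 9.46 in both induced arrays. Of 18 aminoacyl-tRNA synthetase genes, 14 fell and none rose (median -0.51), led by Cars (-0.95), Lars (-0.95), Vars (-0.88) and Gars (-0.84). Of 23 amino acid transporters, 9 fell (39.1%), 3 rose (13%, near the 12.6% of all genes) and 11 did not pass. Those that fell included Slc1a4 (-0.99), Slc7a5 (-0.78) and Slc3a2 (-0.51), and those that rose were Slc38a9 (1.10), a sensor of lysosomal amino acids, Slc36a1 (0.88) and Slc36a4 (0.84). In the ATF4, serine and synthetase lists the shares that fell were 60%, 78.6% and 77.8%, against 8.26% of all genes.

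Cell cycle genes fell together. Many genes of G2 and mitosis carry a cell cycle homology region (CHR, TTTGAA) beside CCAAT boxes. Kif11, a spindle kinesin with one of the smallest adjusted p of its list, shows the layout in the 120 bases before its start (RefSeq, GRCm38.p6, plus strand, chr19:37376262-37376381), where both boxes read on the opposite strand and are in capitals, CCAAT first.
Kif11: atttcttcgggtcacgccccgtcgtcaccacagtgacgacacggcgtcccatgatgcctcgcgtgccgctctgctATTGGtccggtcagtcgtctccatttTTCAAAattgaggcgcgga
The CHR lies 19 to 14 bases and the CCAAT box 45 to 41 bases before the start. A CHR was present in 10 of 28 G2 and mitosis genes with a window (35.7%) and in 13.7% of tested genes, and a CCAAT box in 21 of 28 (75.0%) and in 35.5%. Among S phase genes the CHR share was 10.7% and the CCAAT share 57.1%.

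All 34 measured G2 and mitosis genes fell (100%, against 8.26% of all genes), with a median of -0.74 and a range from -1.07 for Cenpf to -0.29 for Foxm1. Kif11 was 9.61 and 9.58 in repressed and 8.80 and 8.77 in induced arrays (-0.81, SE 0.0642; limma adjusted p = 0.00172). Kif23, needed for cytokinesis, fell by 1.03, Anln by 0.89 and the kinase gene Aurkb by 0.83. For Kif11 the fall was many times the gap between replicate arrays. Of 34 S phase and nucleotide supply genes, 31 fell and none rose (median -0.68). They included the licensing helicase genes Mcm2 to Mcm7, from -0.83 (Mcm7) to -0.72, the polymerase genes Pola1 (-0.96) and Pole (-0.94), and Cdt1 (-0.96). Of 18 histone genes, 9 fell (50%) and 2 rose (11.1%, near the share of all genes). H2bc3 fell by 0.86, H1f5 by 0.69 and the variant H2az1 by 0.62, whereas H2bc4 rose from 7.70 and 7.63 to 8.77 and 8.93. Histone genes are near copies of each other, so their probe sets may not separate them. The regulators of G1 were mixed, with 3 of 18 higher (16.7%, against 12.6% of all genes) and 6 lower (33.3%). The CDK inhibitor Cdkn2d (1.00), cyclin Ccnd3 (0.67) and Rb1 (0.70) rose, and Rbl1 (-0.81), Cdk6 (-0.72), Ccnd1 (-0.52) and Cdk4 (-0.43) fell. Of 25 targets of p53, the damage-response factor, 11 rose and 1 fell (44% higher against 12.6% of all genes). Trp53inp1 rose by 1.55, and the death receptors Fas and Tnfrsf10b rose from 6.77 and 6.60 to 7.77 and 7.89 and from 7.46 and 7.37 to 8.56 and 8.49. Gadd45a fell by 0.81. The targets Cdkn1a and Bax were not analysed here.

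Myc and genes of ribosome biogenesis fell alongside, and whether they depend on Myc here was not tested. Myc was 9.77 and 10.09 in repressed and 8.65 and 8.89 in induced arrays (-1.16; limma adjusted p = 0.00369). Of 33 genes of Myc and ribosome biogenesis, 27 fell and 1 rose (81.8% and 3.03%, against 8.26% and 12.6% of all genes), with a median of -0.60. Dkc1, which modifies ribosomal RNA, fell by 1.10, the nucleolar proteins Gnl3, Nop56 and Nolc1 by 0.95, 0.87 and 0.83, and the member that rose was the Myc partner Max (0.27). Of 23 cytosolic ribosomal protein genes, 11 fell (47.8%) and none rose, and the sizes were small: Rpl30 fell by 0.66, Rpl4 by 0.41 and the list median was -0.24. Snhg5, Gas5 (-0.58) and Snhg15 (-0.47), hosts of small nucleolar RNAs, fell too. The other Gas5 probe sets, which are dimmer, changed by -0.76, -1.075 and -1.44. Of 24 immediate early and AP-1 genes, 6 fell (25%) and 1 rose (4.17%), with Fosl2 (-1.09), Fosl1 (-0.93) and Zfp36l1 (-0.88) among the falls.

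Lysosome genes had the highest share of rises among the lists counted. The TFE family of transcription factors drives lysosome genes through an extended E-box around CACGTG. Lamp1, a major lysosomal membrane protein, is shown for the density of this motif, with 4 copies in capitals in the 120 bases before its start (RefSeq, GRCm38.p6, plus strand, chr8:13159041-13159160).
Lamp1: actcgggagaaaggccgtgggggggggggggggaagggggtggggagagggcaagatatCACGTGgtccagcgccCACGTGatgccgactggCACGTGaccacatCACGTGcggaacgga
The copies begin 61, 45, 28 and 15 bases before the start. The motif, which reads the same on both strands, was present in 9 of 29 lysosome genes with a window (31.0%) and in 1098 of 15614 tested genes (7.03%). Myc also binds CACGTG, and among the genes of Myc and ribosome biogenesis 1 of 27 windows held it (3.7%).

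Of 37 lysosome and V-ATPase genes, 26 rose and none fell (70.3% against 12.6% of all genes), with a median of 0.48. Atp6v1a, the catalytic subunit of the proton pump, rose from 9.44 and 9.18 to 11.14 and 11.09 (1.80, SE 0.0997; limma adjusted p = 0.00127). Other pump subunits that rose were Atp6v0d1 (1.37), Atp6v0a1 (1.21), Atp6v1d (0.92) and Atp6v1h (0.75). Among the hydrolases, the sialidase Neu1 went from 6.45 and 6.39 to 7.80 and 7.74, the sphingomyelinase Smpd1 rose by 1.25 and the acid lipase Lipa by 1.00. The cholesterol exporter Npc1 rose by 0.97. Cathepsins and Lamp1 moved less, with 0.29 for Ctsb, 0.52 for Ctsd and 0.35 for Lamp1. Of 22 genes of the unfolded protein response and folding in the endoplasmic reticulum, 6 rose (27.3%), led by Sel1l (0.64) and Atf6 (0.54). Herpud1 (-0.80) and Xbp1 (-0.48) fell (9.09%, near the 8.26% of all genes). Of 33 nuclear genes of oxidative phosphorylation, none rose and 2 fell (Atp5g1, -0.45, and Sdhb, -0.31), a share below that of all genes. Of 25 glycolysis and hypoxia genes, 9 fell (36%, against 8.26% of all genes) and 1 rose (4%). Hk2 fell by 0.97, Vegfa by 0.88, Ndrg1 by 0.76 and Ldha by 0.42.

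About as many Hippo and YAP genes rose as did not pass, and a minority of contractile genes rose. YAP and TAZ act through TEAD factors, which bind GGAATG, and answer to cell shape and tension, while smooth muscle genes carry CArG boxes bound by SRF. Nppb, which encodes a natriuretic peptide, had the largest rise of the Hippo list and is shown with its TEAD motif in capitals, 105 to 100 bases before the start (RefSeq, GRCm38.p6, plus strand, chr4:147985780-147985899).
Nppb: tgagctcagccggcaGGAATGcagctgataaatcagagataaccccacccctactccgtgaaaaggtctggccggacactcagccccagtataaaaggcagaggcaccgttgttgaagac
GGAATG on either strand was present in 11 of 18 Hippo-list genes (61.1%) and 8 of 20 smooth muscle genes (40.0%), against 11.3% of tested genes. The CArG box was present in 4 of 20 smooth muscle genes (20.0%) and 1.25% of tested genes.

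Of 22 Hippo factors and YAP targets, 12 rose and none fell (54.5% against 12.6%), with a median of 0.34. Nppb went from 6.66 and 7.05 to 8.98 and 9.34 (2.31, SE 0.166; limma adjusted p = 0.00159). The matricellular target Ccn1 rose by 0.91 and Ankrd1 by 0.66. The rises took in upstream parts of the pathway as well, Nf2 (0.60), Stk4 (0.59) and Lats2 (0.57), which restrain YAP, and the effectors Wwtr1 (0.54), Tead1 (0.42) and Tead3 (0.65). Of 24 smooth muscle contractile genes, 9 rose and 1 fell (37.5% and 4.17%, against 12.6% and 8.26% of all genes). Beside Acta2 and Tagln these were Actg2 (0.88), Des (0.85), Cnn1 (0.81), Tpm2 (0.80), Cnn2 (0.51), Cald1 (0.45) and Myl6 (0.24), while Flna fell by 0.33. The defining late marker Myh11 stayed between 5.26 and 5.32, and Acta2 and Actg2 are near copies of each other in coding sequence. Of 8 basal and myoepithelial markers, Acta2, Tagln and Cnn1 rose and Krt14 fell from 8.77 and 8.82 to 7.78 and 7.52, the only one of 16 keratins to pass. The summed linear level of the 8 markers was 723 and 738 in repressed and 892 and 1245 in induced arrays.

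**Figure D3:**
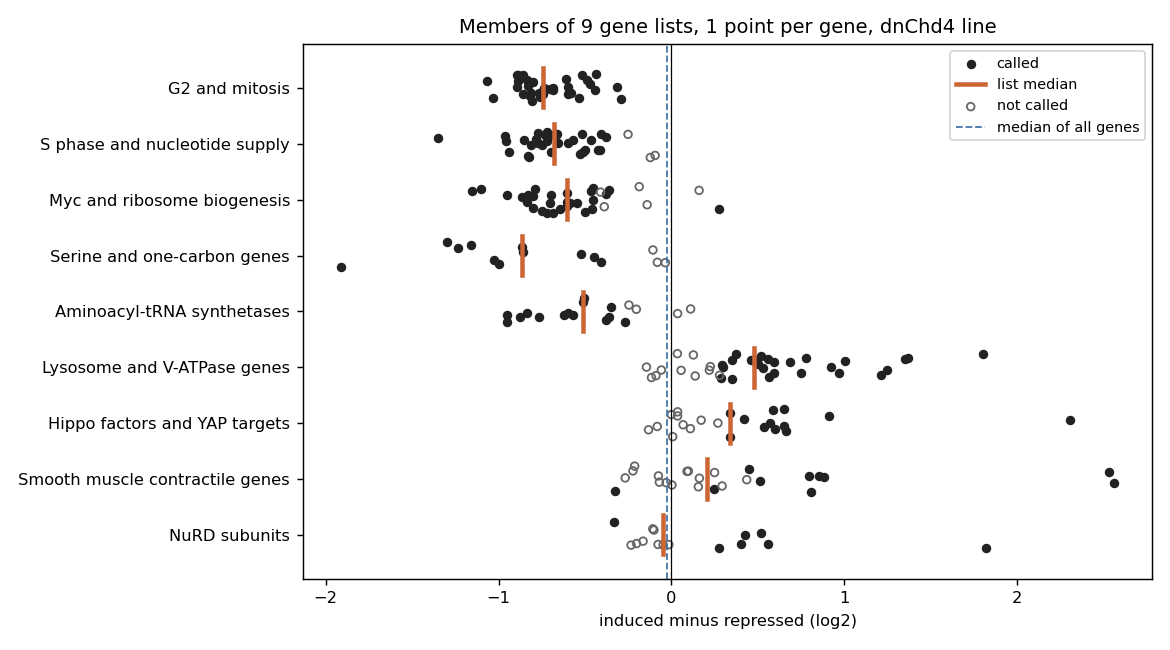
Change on induction (log2) of each measured member of 9 gene lists in the dnChd4 line, filled where called, with the list median as a bar and the median of all genes as a dashed line. The cycle, Myc, serine and synthetase lists lie left of 0, the lysosome and Hippo lists lie right of it, and the smooth muscle and NuRD lists have medians near 0.20 and -0.05 with a few large rises.

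Adhesion, matrix and secreted factors changed gene by gene. The shares here are set against 12.6% higher and 8.26% lower over all genes. Of 42 adhesion and junction genes, 13 rose (31%) and 3 fell (7.14%, near the share of all genes). After Mcam and Adgrg1 came Madcam1, an addressin for lymphocytes, which rose from 5.30 and 5.16 to 7.42 and 6.89, Jup (1.34), Cgnl1 (1.33) and the collagen receptor Itga1 (1.20). Gja1, Itga3 (-0.60) and Cd9 (-0.48) fell. Of 35 collagen and matrix genes, 9 rose (25.7%) and 3 fell (8.57%, again near that of all genes): Col5a2 went from 9.85 and 9.99 to 11.33 and 11.45, Lamb3 rose by 1.12 and Thbs2 by 0.72, while Vcan (-0.83), Fbln2 (-0.61) and Col6a3 (-0.55) fell. Of 23 matrix proteases and inhibitors, 6 rose (26.1%), with Mmp19 (1.38) and the plasminogen activator Plau (1.00) first. The crosslinking enzyme gene Lox fell by 0.91, and the hydroxylases Plod1 (0.75) and P4ha2 (0.69) rose. The mesenchymal transcription factor Snai2 fell from 8.58 and 9.06 to 7.62 and 7.64, and 11 of 14 genes of its class did not pass. Among secreted signals, the TGF-beta family ligand Gdf11 rose from 7.38 and 6.98 to 9.42 and 9.22, Inhba rose by 0.95, and the targets Id2 (0.96), Smad6 (0.66) and Id3 (0.55) rose, among 10 of 28 genes of that family that were higher (35.7%) and 3 lower (10.7%). Igf1 went from 6.21 and 5.92 to 7.56 and 7.79, and Igf2r, which clears Igf2 and carries hydrolases to lysosomes, rose by 0.88, while the binding protein Igfbp4 fell by 0.64. The epidermal growth factor family ligand Ereg rose by 0.97. Of 34 Wnt genes 7 rose (20.6%) and 3 fell (8.82%), with Lgr4 (0.51) and Dkk2 (-0.60) as examples. Of 19 Notch genes 2 rose (10.5%), Notch3 (0.75) among them, and 1 fell (5.26%). The Notch counts and the Wnt falls were near or below the shares of all genes.

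Some immune genes rose while the macrophage markers Csf1r, Adgre1, Ptprc and Spi1 stayed dim. Of 24 myeloid-type genes, 6 rose and 1 fell (25% and 4.17%, against 12.6% and 8.26% of all genes). Those that rose were Lcp1, Ms4a4d, Pld4, Naip5 (1.92), Lyz2 (1.74) and Cd68 (1.03). The macrophage marker Tyrobp fell by 0.24, a call that did not hold under many settings. The limma adjusted p was 0.219 on 12 arrays, 0.118 with quantile scaling, 0.0613 with median scaling and 0.102 with all probe sets. The Tyrobp call also ended on 15 and 17 arrays, with a trended prior and in each 3-array fit. The invariant chain Cd74 rose from 4.45 and 4.48 to 5.94 and 5.99 (1.50, SE 0.0648; limma adjusted p = 0.00119), and 2 of the factors that bind class II promoters rose, Rfx5 (0.71) and Rfxank (0.42), while 9 of 12 class II genes did not pass. Of 12 macrophage markers, Cd68, Lyz2 and Cd74 rose (25%), Tyrobp fell (8.33%, near the share of all genes) and 7 were dim. Among those dim in all 4 arrays, Csf1r lay between 4.23 and 4.43 and Adgre1 between 3.89 and 3.99. Ptprc lay between 4.36 and 4.48, and Spi1 between 4.22 and 4.40. Of the B cell markers 2 of 4 were dim, and of the T cell markers 2 of 4. The summed linear level of the 12 markers was 362 and 353 in repressed and 528 and 488 in induced arrays. None of 4 B cell, 7 endothelial and 6 adipocyte markers passed, and the only T cell marker that did, Cd3e, fell by 0.25. That call ended under the same settings as the Tyrobp call. The limma adjusted p for Cd3e was 0.112 on 12 arrays, 0.0752 with quantile scaling, 0.0618 with median scaling and 0.103 with all probe sets. In bulk RNA, more cells of a type and more RNA per cell cannot be told apart. The inflammatory list moved both ways, with 7 of 30 higher and 6 lower (23.3% and 20%, against 12.6% and 8.26% of all genes). The neutrophil chemokines Cxcl3 and Cxcl5 (-1.11) and the ferroxidase Cp (-1.01) fell, while the NF-kB inhibitors Nfkbie (0.69) and Tnfaip3 (0.50) and the pattern receptor Ptx3 (0.80) rose. Of 21 interferon-stimulated genes, 4 rose (19%, against 12.6% of all genes), Ddx58 (0.90) and Irf7 (0.85) most.

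Of 30 glutathione and NRF2 genes, 7 rose and 4 fell (23.3% and 13.3%, against 12.6% and 8.26% of all genes). Of the Gstm transferases, Gstm5 rose far ahead of Gstm2 (1.19), Gstm6 (1.08), Gstm7 (0.87) and Gstm1 (0.64), and these neighbours are near copies whose probe sets may share signal. Gss (0.40), the last enzyme of glutathione synthesis, rose. The synthesis genes Gclm (-0.61) and Gclc (-0.46) and the reductase Gsr (-0.36) fell, beside Slc7a11, which supplies the cystine for glutathione. Aldh1a7, a near copy of Aldh1a1, rose by 1.31, and 21 of 25 genes of the retinoid list did not pass. The haem oxygenase Hmox1 rose by 0.70. Of 20 genes of the glucocorticoid receptor list 2 rose (10%, below the share of all genes), Dusp1 (0.79) and Tgm2 (0.50), and 3 fell (15%), Mt2 (-0.90), Mt1 (-0.55) and Sgk1 (-0.51). Calls among lineage genes stayed below the shares of all genes, with 4.17% to 8% higher and at most 5.26% lower in each list, and many members were dim (20 of 24 germline, 9 of 19 imprinted, 9 of 36 Hox, 12 of 29 neuronal and 7 of 25 muscle genes), where calls are rare. In all, 22 of 24 germline, 17 of 19 imprinted, 34 of 36 Hox, 26 of 29 neuronal and 22 of 25 muscle genes did not pass. Hoxc13 (0.57), Vgf (0.73) and Tnnt2 (1.11) were among the rises and the germline gene Dppa3 (-0.57) among the falls. A dimmer probe set of Dppa3 changed by -0.03.

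**Figure D4:**
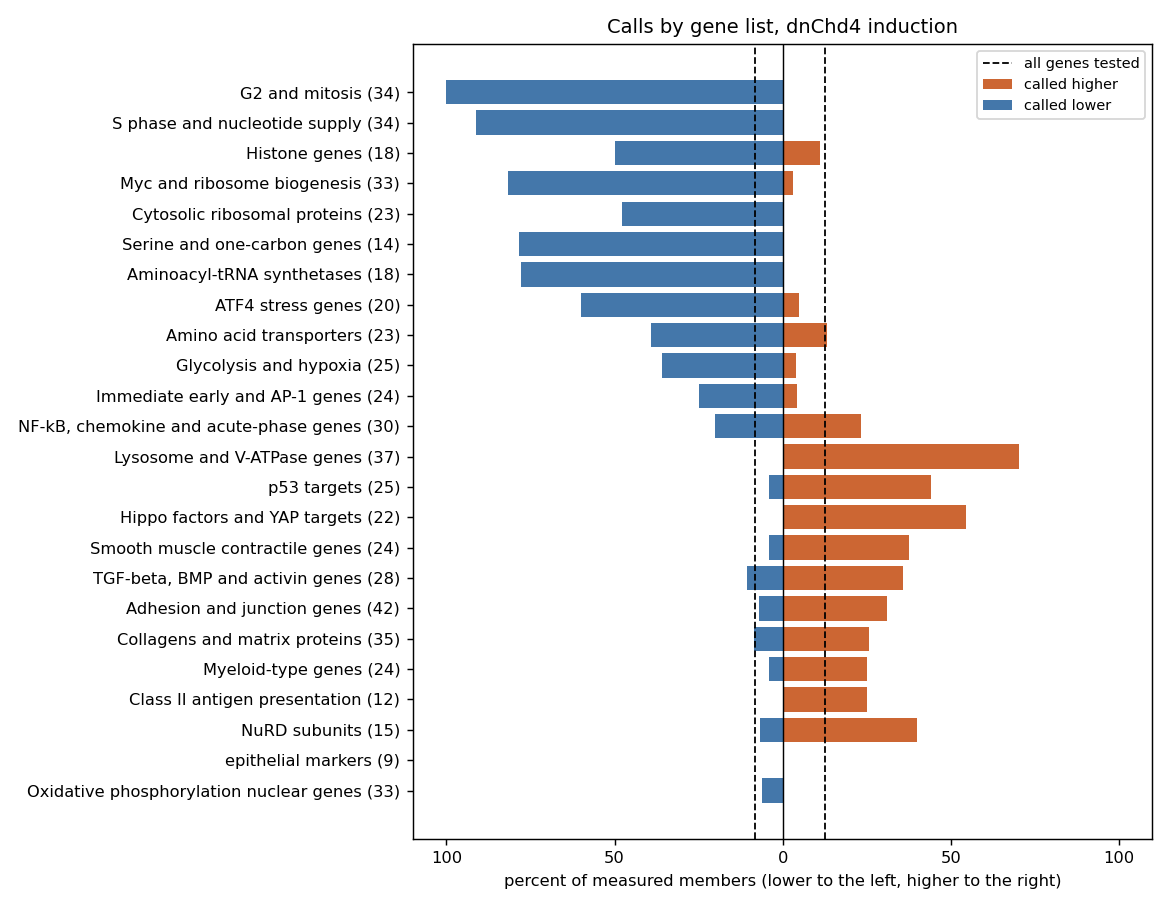
Percent of the measured members of 24 gene lists called lower (left) or higher (right) on dnChd4 induction, with the number measured in brackets. Dashed lines mark the shares of all 19938 genes tested, 8.26% lower and 12.6% higher. All G2 and mitosis genes are to the left, and 70.3% of lysosome genes are to the right.

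The other dominant-negative lines moved most of these genes the same way. Of the 2521 genes called higher, 2398 were above 0 on induction of dnSnf2h and 2291 on induction of dnBrg1, and of the 1647 called lower, 1526 and 1522 were below 0. Across genes the changes correlated at 0.772 with dnSnf2h and 0.672 with dnBrg1, where genes are not independent replicates. The median change of the genes called higher was 0.49 in the dnChd4 line, 0.37 with dnSnf2h and 0.32 with dnBrg1. For the genes called lower it was -0.455, -0.457 and -0.317. Both sets were chosen by their call in the dnChd4 arrays, which favours larger changes there, so these medians do not rank the lines. The G2 and mitosis median was -0.74, -0.75 and -0.76 in the dnChd4, dnSnf2h and dnBrg1 lines, and the lysosome median 0.48, 0.33 and 0.43. Lists of amino acid supply fell less with dnBrg1. In the same order of lines, the ATF4 median was -0.59, -0.65 and -0.13. The serine and one-carbon median was -0.86, -0.80 and -0.47, and the synthetase median -0.51, -0.58 and -0.25. These list differences were not tested. Tests of the difference passed for 1.27% of genes against dnBrg1 and 0.13% against dnSnf2h. The dnChd4 response was higher than that of dnBrg1 for 198 genes (0.993%) and lower for 56 (0.281%), and higher than that of dnSnf2h for 25 (0.125%) and lower for 1 (0.00502%). The second count depends on dnSnf2h repressed replicate 1, without which 175 genes differed (103 higher and 72 lower). The first ran from 106 to 382 genes with any 1 array left out, lowest without dnChd4 repressed replicate 2 and highest without either dnSnf2h repressed array.

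Several contractile and YAP genes differed from their response in the dnBrg1 line. Acta2 rose by 2.56 in the dnChd4 line and 2.32 in the dnSnf2h line and changed by -0.50 in the dnBrg1 line, a difference from dnBrg1 of 3.05 (SE 0.343; limma adjusted p = 0.000187). Nppb rose by 2.31 and 2.06 and changed by -0.01 with dnBrg1, a difference of 2.32 (limma adjusted p = 0.000443). The muscle troponin Tnnt2 rose by 1.11 here and changed by -1.27 with dnBrg1. In the control line on 15 arrays, Acta2 changed by 1.93, Nppb by 2.39 and Tnnt2 by 1.51. The median of the Hippo list was 0.34, 0.31 and 0.04 in the dnChd4, dnSnf2h and dnBrg1 lines. It was 0.18 in the control line on 15 arrays. In the other direction, Csnk1g1 (-2.75) and Auts2 (-2.29) responded less here than with dnBrg1, where they rose by 3.01 and 2.16, and neither passed in the dnChd4 line (changes of 0.26 and -0.13). Against dnSnf2h the single lower gene was the interferon-responsive Rtp4, with -0.40 here and 0.73 there.

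For 20 genes the rise was larger than in both other dominant-negative lines, each difference past the threshold, and all 20 were called higher in the dnChd4 line. No gene was lower than in both. Susd2, Pld4, Madcam1, Cd74, Ly6f, Robo1 and Chd4 rose here and did not pass in the dnBrg1 and dnSnf2h lines. Pld4 passed in the control line on 15 arrays, with a smaller rise (0.55; limma adjusted p = 0.00142). Susd2 ranged from 4.36 to 4.94 over the 13 arrays of the other lines and reached 7.37 and 7.72 in the induced dnChd4 arrays. Pld4, an endolysosomal nuclease, ranged from 4.43 to 5.27 elsewhere and reached 6.68 and 6.66. Cd74 ranged from 4.40 to 4.84 elsewhere against 5.94 and 5.99. The axon guidance receptor Robo1 went from 5.33 and 5.32 to 6.71 and 6.54 (1.30), with 5.27 to 5.85 in the other arrays. Ly6f, a member of the Ly6 surface protein family, went from 4.84 and 4.67 to 5.97 and 6.33. Mcam, Gstm5 and Lcp1 were different, since they also passed in both other lines (0.74, 1.15 and 0.58 with dnBrg1, 2.02, 1.95 and 1.68 with dnSnf2h), and the dnChd4 line had the larger rise. Of the remaining members, Ms4a4d, Muc13, Usp11 (1.58), Tcp11x2, Ddah2 (1.42), 1700006J14Rik (1.13) and Smpd2 (0.96) also passed in neither other dominant-negative line. Tagln passed as a smaller rise with dnSnf2h (0.60), and Lncenc1 (1.93) passed as a fall with dnBrg1 (-0.32). Pnma5 (0.43) passed as a fall in both (-0.34 with dnBrg1 and -0.66 with dnSnf2h). In the control line on 15 arrays the changes were 2.87 for Mcam, 3.15 for Gstm5, 2.615 for Lcp1 and 1.18 for Tagln. Tcp11x2 changed there by 1.76, Ms4a4d by 1.195 and Muc13 by 0.90. The changes there were 0.15 for Susd2, -0.26 for Madcam1, 0.10 for Cd74, 0.11 for Ly6f and 0.10 for Chd4. Usp11, Lncenc1, Ddah2 and Smpd2 took a high and a low level in the control arrays, as described for Mcam below. Beforehand the 20 genes had a median level of 4.99, and 7 were dim in both repressed arrays. Of the motifs searched in their promoters, the commonest was the CCAAT box, in 5 of 17 windows (29.4%, against 35.5% of tested genes). The AP-1 string TGANTCA was in 3 windows (17.6%, against 6.11%), and the other motifs were in 1 or 2 each. These genes outside the naming rule were named after their values were seen.

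Against the control line with all 17 arrays, 0.0401% of genes differed: the change was higher in the dnChd4 line for 7 genes (0.0351%) and lower for 1 (0.00502%). The 7 were Susd2 (a difference of 2.68, SE 0.225; limma adjusted p = 0.000275), Madcam1 (2.18), Pld4 (1.95), Chd4 (1.83), Ly6f (1.49), Cd74 (1.37) and Robo1, all of them also among the 20 above. The gene with the lower change was the RNA-binding protein gene Zfp36l1 (-0.87; limma adjusted p = 0.0481). It fell from 7.99 and 8.0 to 7.05 and 7.19 in the dnChd4 line and was 6.75 to 6.91 in all 5 control arrays, so the control line had the low level throughout. Several of the genes with the largest changes were at both levels in the control arrays. Mcam was 5.83 and 6.32 in control repressed replicate 2 and control induced replicate 1, and 8.64, 8.71 and 8.68 in the other 3. Adgrg1 was 7.11 and 7.22 in the same pair and 10.52, 10.52 and 10.47 in the others, and Slc7a11 was 8.23 and 8.35 against 5.50, 5.71 and 5.72. By labels each level thus holds arrays of both groups, which leaves the spread of the control line wide.

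On 15 arrays, without control repressed replicate 1 and control induced replicate 1, the control line kept 1 repressed array, assumed to vary like the other groups, and 2 induced arrays. These arrays were set aside for their correlations over all genes, so the values that follow are descriptive of that choice. In that fit 3070 genes rose (15.4%) and 2240 fell (11.2%) on induction of the transactivator alone, and 2448 of the 2521 genes higher with dnChd4 were above 0 there, as 1578 of the 1647 lower genes were below 0. The control medians were -1.34 for G2 and mitosis, -1.34 for S phase, -1.30 for serine and one-carbon genes and 0.61 for lysosome genes, against -0.74, -0.68, -0.86 and 0.48 with dnChd4. The dnChd4 response was higher than the control response for 101 genes (0.507%) and lower for 62 (0.311%). Of the genes called higher with dnChd4, 19 were among those higher than the control and 38 among those lower. Of the genes called lower with dnChd4, 55 fell less than in the control, or against it, and 2 were lower than it. All 8 genes that differed on 17 arrays differed on 15 too. Tagln (a difference of 1.35; limma adjusted p = 0.0399), Ms4a4d (1.22), Mcam (0.91), Igf1 (1.19), Lamb3 (0.98) and Cd68 (0.98) joined those with the larger response in the dnChd4 line. Among the falls, Slc6a9 (-1.46 with dnChd4, -2.51 in the control), Psat1 (-1.16 and -1.95) and Cxcl5 (-1.11 and -2.41) fell less, and 8 of 34 S phase genes differed in that direction. For Slc7a11, Adgrg1, Gstm5 and Nppb the differences were -0.06, -0.04, 0.06 and -0.08 (SE 0.239, 0.155, 0.161 and 0.309).

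**Figure D5:**
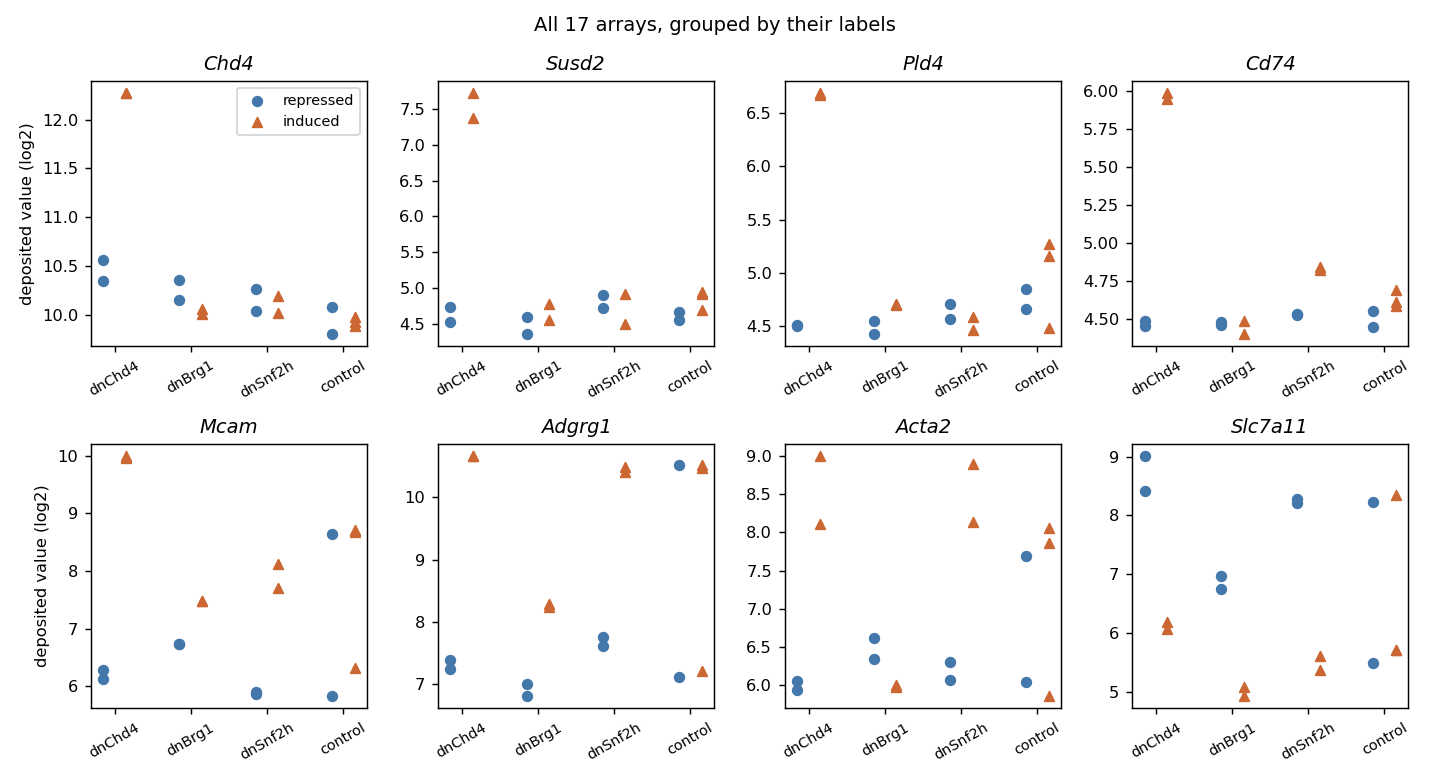
Deposited log2 value of 8 genes in all 17 arrays, by line and by the labelled state (circles repressed, triangles induced). Chd4, Susd2, Pld4 and Cd74 are high only in the induced dnChd4 arrays among the arrays shown, whereas Mcam, Adgrg1, Acta2 and Slc7a11 take a high and a low level in the control line, with arrays of both labels at each level.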

How the data were processed

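The authors summarized each array with Expression Console, per the submitters' processing notes, into deposited log2 values, 1 per probe set, where the log2 scale is judged from the range. The sources used here do not give the version, summarization or normalization. Values were not scaled again. The small number of arrays limits the precision. The platform annotation named 1 gene for 21789 of 35557 probe sets, several for 1621 and none for 12147, and 21698 of the single names matched RefSeq. For 999 genes with several probe sets the one with the highest mean over the 17 arrays was kept, which left 19938 genes. Induced minus repressed was tested in limma 3.58.1 (R 4.3.3; lmFit, eBayes, two-sided), adjusted by Benjamini-Hochberg over all genes, with 0.05 as the threshold. The script was checked on simulated data. Differences between lines are interaction contrasts over the 12 arrays of the dominant-negative lines or all 17.

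Genes were named by rule: the 12 highest and lowest changes called and not overlapping, the 4 smallest adjusted p of each list or members that define it by role, the 5 highest and lowest differences between lines, the 6 largest rises of dim genes, the 4 largest changes each way above the 90th percentile of mean level, and all NuRD subunits. Predicted and clone names were passed over. Members named to complete a list's called genes were chosen after their values were seen. The comparison and the gene lists were chosen with earlier results of these data known. Promoter windows and sequences come from RefSeq (GRCm38.p6), for 15614 tested genes. Alternatives were other sets of arrays, a block for the replicate number, a trended or robust prior, weights per array, dropping dim genes, quantile and median scaling, all probe sets, and arrays left out in turn.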

Additional observations from a re-analysis of the deposited data

Results flagged for a closer look

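The values below are differences between lines in the change on induction (dnChd4 minus the other line, log2) for genes named by the rule, each past the limma threshold of 0.05 after adjustment over all genes. Groups of 2 and 3 arrays are too small for a test of single outlying arrays. None of these differences is explained here.

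Against dnBrg1, 34 named genes were higher and 11 lower, with adjusted p up to 0.0484 (limma). Contractile, adhesion and matrix genes among the higher ones were Acta2 (3.05), Mcam (3.04), Tagln (2.47), Tnnt2 (2.38), Madcam1 (2.24), Adgrg1 (1.98), Mmp19 (1.91), Cnn1 (0.98), Col5a2 (0.96), Plau (0.92), Thbs2 (0.87) and P4ha2 (0.74). Genes of immune or lysosomal character were Ms4a4d (2.74), Lcp1 (2.33), Pld4 (1.95), Cd74 (1.52), Cd68 (1.51), Ly6f (1.41), Igf2r (1.21), Cxcl5 (1.14) and Atp6v1a (1.00). The rest were Susd2 (2.74), Nppb (2.32), Gstm5 (2.06), Aldh1a1 (2.04), Chd4 (2.04), Muc13 (1.85), Tcp11x2 (1.48), Igf1 (1.32), Gdf11 (1.30), Cdkn2d (1.24), Gprc5a (1.00), Tcf4 (0.87) and Gstm6 (0.80). The lower ones were Csnk1g1 (-2.75), Auts2 (-2.29), Slc40a1 (-1.61), Dynap (-1.60), Cd36 (-1.52), Cxcl3 (-1.15), Slc1a5 (-0.90), Fosl1 (-0.85), Dppa3 (-0.80), Loxl4 (-0.79) and Vegfa (-0.69).

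Against dnSnf2h, 15 named genes were higher and 1 lower, with adjusted p up to 0.0429 (limma). They were Susd2 (3.03), Pld4 (2.28), Ms4a4d (1.95), Tagln (1.93), Chd4 (1.86), Mcam (1.76), Ly6f (1.57), Madcam1 (1.53), Muc13 (1.50), Gstm5 (1.26), Lcp1 (1.23), Tcp11x2 (1.20), Cd74 (1.19), Notch3 (0.86) and Perp (0.82), and the lower gene Rtp4 (-1.13).

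Against the control line on 17 arrays, 6 named genes were higher and 1 lower, with adjusted p up to 0.0481 (limma). They were Susd2 (2.68), Madcam1 (2.18), Pld4 (1.95), Chd4 (1.83), Ly6f (1.49) and Cd74 (1.37), and the lower gene Zfp36l1 (-0.87), which also fell in the dnBrg1 and dnSnf2h lines.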

How the results depend on the processing

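No count and no named gene with a call changed direction under the alternatives run. Of 59 gene lists, 13 with medians between -0.0554 and 0.067 changed the sign of the median under quantile or median scaling, and no median is given for them. The median difference from dnBrg1 over all genes went from 0.0131 to -0.0117 under quantile scaling. The 4168 induction calls became 19 with the spread of all 17 arrays, 1956 when all probe sets entered, and 0 in each 3-array fit. Leaving out arrays in the 12-array fit, chosen after seeing the data, gave 1926 to 2624 calls, of which 1867 to 2430 were among the 4168 (2011 and 2428 without induced replicate 1 or 2). Other settings gave 3590 to 5214 calls. Quantile scaling moved the share of calls that were rises from 60.5% to 52.3%. The 254 differences from dnBrg1 became 26 on 17 arrays, 76 with all probe sets, 550 with array weights and 106 to 382 with arrays left out. The 26 differences from dnSnf2h became 8 on 17 arrays, 10 with all probe sets and 15 to 175 with arrays left out, 175 without dnSnf2h repressed replicate 1. The 8 differences from the control became 5 with all probe sets, 163 on 15 arrays and 5 to 16 with arrays left out, 16 without control repressed replicate 2. The cause of these shifts was not tested beyond the fewer arrays or the wider adjustment.

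Replicate numbers are not stated to pair the arrays, and same-numbered arrays shared deviations unevenly (correlations of 0.016, 0.135 and 0.313 in the dnBrg1, dnChd4 and dnSnf2h lines). With the replicate number as a block, 5214 genes passed on induction, and 217, 25 and 6 differed from dnBrg1, dnSnf2h and the control. Of 218 named genes 199 were called on induction. The block kept all 199 and added 3. Of the 199, 185 kept call and direction on 12 arrays, 186 on 15 arrays, 155 with all probe sets, 12 on 17 arrays and 0 in each 3-array fit. Lost on 12 arrays were Gatad2a, Gatad2b, Smarcc1, Rsf1, Spry2, Maml2, Hsd17b7, Elovl6, Sdhb, Impact, Hoxc11, Gap43, Tyrobp and Cd3e.

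Arrays carry no counting depth. The limit here is 2 arrays a group, and low signals near background understate change.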

Other observations

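Circadian and iron genes belong to no comparison above. Of 17 clock genes, 5 fell and 1 rose on dnChd4 induction, and of 25 genes of iron and haem handling, 5 rose and 4 fell. Of 27 genes of cholesterol and fatty acid synthesis, 6 rose and 1 fell. These are counts at the limma threshold, against 12.6% higher and 8.26% lower over all genes.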
